A study of Mus musculus with 2 samples.

Results

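The proteasome subunit genes were taken as the genes whose symbol begins with Psma, Psmb, Psmc, Psmd, Psme, Psmf or Psmg followed by a digit and that have a protein-coding transcript, leaving out Psmb8, Psmb9 and Psmb10. The rule found 47 genes of the 55536 in the tables. By their known roles, 14 encode the core particle (7 alpha and 7 beta subunits) and 17 the regulatory particle (6 ATPases and 11 other subunits). A further 7 encode assembly chaperones, 5 encode activators and 1 encodes the inhibitor PI31. The remaining 3 are Psma8 and Psmb11, core subunits of testis and thymus, and Psmc3ip, a meiotic recombination factor that is no subunit although its symbol fits the rule.

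Polyadenylated RNA was measured in 1 group of 2 libraries from mouse hippocampus, with no second condition. The animals were C57BL/6, strain B6NCrl, aged 6 months and described as male, although the field for sex says it was not collected. No transgene or treatment is named. The libraries are labelled biological replicates 1 and 2, with separate tissue samples but 1 donor identifier between them, and nothing says whether they came from separate animals. The p-values below therefore compare 1 library with the other and no conditions. The gene tables held 38921662 expected reads in replicate 1 and 39499350 in replicate 2.

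The proteasome degrades proteins that carry a chain of ubiquitin. Its core particle is a barrel of stacked alpha and beta rings, with the proteolytic sites facing inwards on the beta rings. The regulatory particle caps the barrel, binds the ubiquitin chain, removes it, and unfolds the substrate with a ring of ATPases that threads it into the core. Chaperones build both particles, and the transcription factor encoded by Nfe2l1 is known to raise subunit genes together when proteolysis is impaired. In neurons, the proteasome is known for its part in protein turnover at synapses.

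In each library 45 of the 47 genes had at least 1 TPM (a transcript level scaled for transcript length and sequencing depth). Over all 21901 genes with a protein-coding transcript the share was 56.9%. The core particle lay highest, with a median of 251.7 TPM in replicate 1 and 232.7 in replicate 2 (242 ± 13.5, SD, n = 2). The regulatory particle followed with 120.9 and 120.6 TPM (121 ± 0.163, SD, n = 2), the chaperones with 35.5 and 31.8, and the activators with 13.0 and 14.1. Among the 12459 protein-coding genes that reached 1 TPM in each library, the median was 13.3 and 13.1 TPM. Their 90th percentile by mean level was 112.9 TPM, and 12 of 14 core and 11 of 17 regulatory subunits lay above it. All 47 genes together held 0.687% of TPM in replicate 1 and 0.660% in replicate 2 (0.673% ± 0.0194, SD, n = 2).

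**Figure D1:**
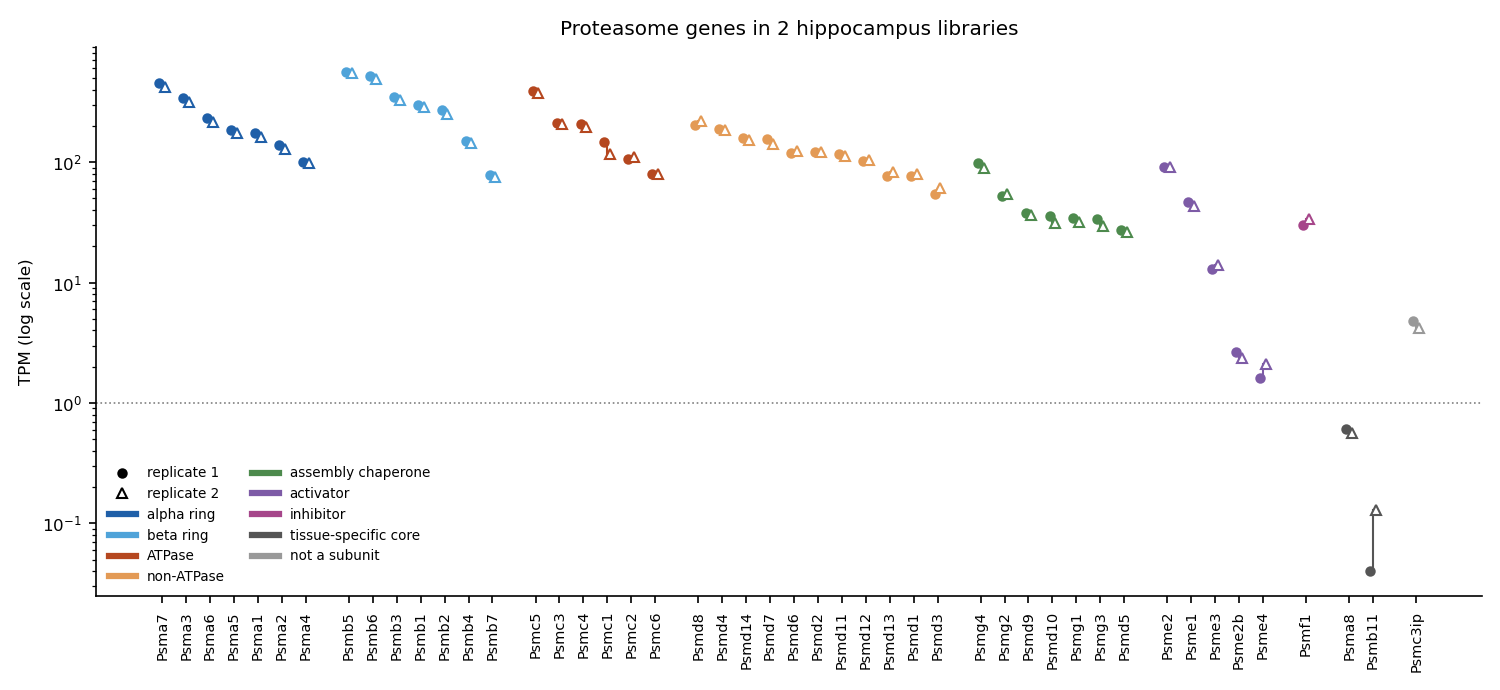
TPM on a log scale (vertical axis) for each of the 47 genes (horizontal axis), grouped by role and sorted by mean within a role. Filled circles are replicate 1, open triangles replicate 2, and the dotted line marks 1 TPM. Core subunits run from 560.2 TPM (Psmb5) down to 75.9 (Psmb7), and only Psma8 and Psmb11 fall under the line.

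The alpha ring forms the gate of the barrel. Its highest member was Psma7, at 452.2 TPM in replicate 1 and 416.8 in replicate 2, and its lowest Psma4, at 100.04 and 97.88. The 7 alpha genes spanned 4.39-fold in mean TPM, and their coefficient of variation over members was 53.0%.

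The beta ring carries the proteolytic sites on 3 of its subunits, and these lay at opposite ends of the ring's range. Psmb5, the chymotrypsin-like subunit, was the highest of all members at 560.2 TPM in replicate 1 and 553.5 in replicate 2. Psmb6, the caspase-like subunit, came next at 522.9 and 489.3 TPM. Psmb7, the trypsin-like subunit, was the lowest core gene at 78.3 and 75.9 TPM. The values of Psmb7 overlapped those of neither other catalytic gene in any library. The beta subunits occur in equal number in the assembled particle, and the mean TPM of their genes spanned a 7.22-fold range. Psmb7 overlaps the gene Nek6 on the opposite strand by 6571 bases, and the transcripts share 255 identical bases. Nek6 held 3292 and 3711 reads beside 2407 and 2402 of Psmb7, and whether the counting used strand is not given in the sources used here.

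Among the ATPases that unfold the substrate, Psmc5 was highest at 389.1 TPM in replicate 1 and 375.2 in replicate 2. Psmc6 was lowest at 80.4 and 80.0 TPM. Psmc5 was the single regulatory gene above the core median, and the other ATPases had means between 108.7 TPM (Psmc2) and 208.7 TPM (Psmc3).

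The other regulatory subunits form the scaffold, the ubiquitin receptors and the deubiquitinating enzyme. Psmd8, a lid subunit, was highest at 201.8 and 218.3 TPM, and Psmd3, a scaffold subunit of the lid, was lowest at 54.6 and 61.3. Psmd14, the deubiquitinase that removes the ubiquitin chain, had 157.9 and 152.5 TPM, and Psmd4, a ubiquitin receptor, had 187.9 and 184.6. Psmd1 and Psmd2, the large scaffold proteins of the base, had means of 78.8 and 120.7 TPM. Adrm1, another ubiquitin receptor, and Sem1, a small lid subunit, fall outside the symbol rule and had 105.3 and 114.9, and 169.5 and 149.3 TPM.

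Core genes were thus higher than regulatory genes per transcript length. The ratio of the medians was 2.08 in replicate 1 and 1.93 in replicate 2 (2.01 ± 0.109, SD, n = 2). By mean TPM, 12 of 14 core genes lay above the regulatory median, and 1 of 17 regulatory genes above the core median. The second quantification program gave a ratio of 2.06 ± 0.121 (SD, n = 2). In CPM, read counts scaled for depth but not divided by length, the ratio was 0.989 and 0.979, and 7 of 14 core genes lay above the regulatory median. The median transcript length was 1098 bases for core and 1564 for regulatory genes in replicate 1, against 2372 for protein-coding genes with at least 1 TPM. The ratio of mean CPM was 1.21 and 1.16 (1.18 ± 0.0411, SD, n = 2), so the particles had like medians of reads per gene, while the mean was higher in the core. Restricted to protein-coding transcripts, a setting chosen after seeing the data, the ratio was 1.69 ± 0.0980 (SD, n = 2), and 10 of 14 core and 2 of 17 regulatory genes lay above the other particle's median.

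**Figure D2:**
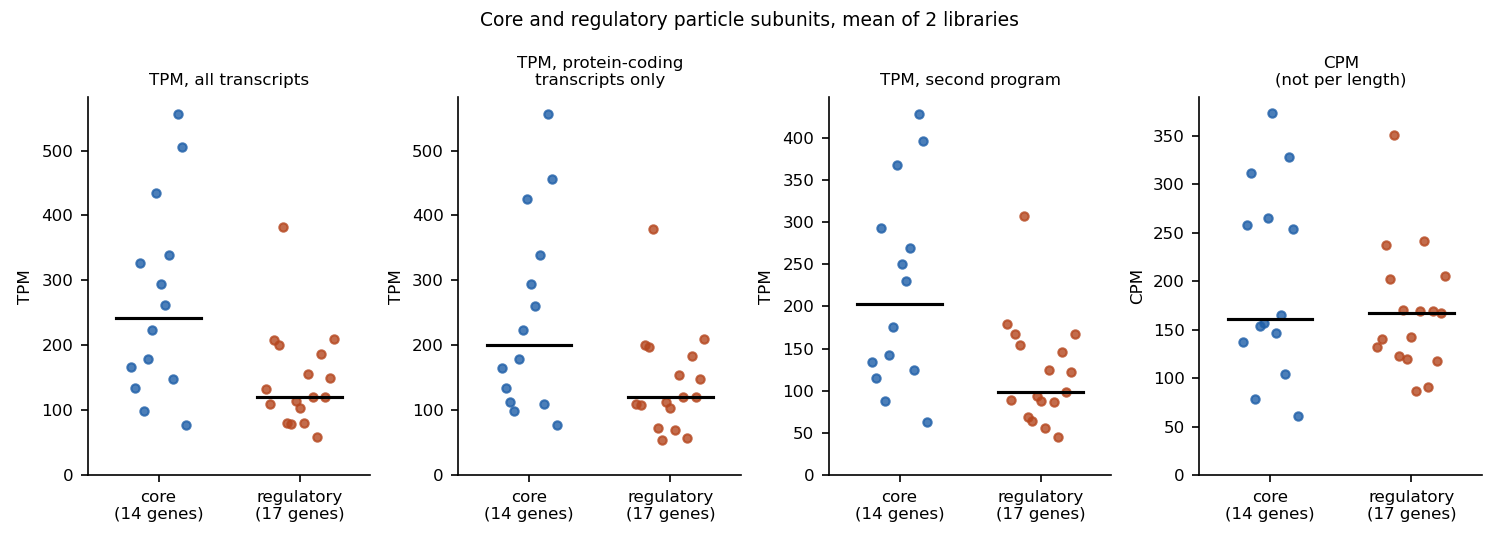
Levels of the 14 core and 17 regulatory genes (points, mean of 2 libraries) in 4 units, with a line at the median of the plotted means. The vertical axis is linear and starts at 0 in each panel, in TPM or CPM. The core median lies above the regulatory one in the 3 TPM panels, with ratios of 2.01, 1.69 and 2.06, and beside it in CPM, with a ratio of 0.984.

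The assembly chaperones had a lower median than either particle they build, 33.7 ± 2.62 TPM (SD, n = 2). Psmg4, a partner in the chaperone pairs that assemble the alpha ring, was highest at 98.0 and 89.8 TPM. Psmd5, a chaperone of the ATPase ring, was lowest at 27.32 and 26.04 TPM, and the other 5 had means between 31.5 and 53.4 TPM. Pomp, the maturation factor of the core, lies outside the symbol rule and stood far above these chaperones, at 316.6 and 304.2 TPM.

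The activators are alternative caps of the core, and their mean TPM spanned 49.5-fold. In the second program the range was 126-fold, with Psme2b lowest at 0.592 TPM. Psme1 and Psme2 encode the partner subunits of the cap known from antigen processing. Psme2 had 91.8 TPM in replicate 1 and 91.3 in replicate 2, and Psme1 had 46.9 and 43.2. Psme3, which encodes the nuclear cap, had 13.0 and 14.1 TPM, and Psme4, the large single-chain activator, was lowest in the first program at 1.60 and 2.10. The inhibitor gene Psmf1 had 30.1 and 33.8 TPM. The immune core subunits that replace the catalytic ones after interferon were lower than Psmb5 and Psmb6 for Psmb8, with 22.8 and 20.1 TPM, and Psmb9, with 7.37 and 6.01. Psmb10, the immune counterpart of Psmb7, had 105.1 and 111.6 TPM and was above Psmb7 in both libraries.

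The genes of other tissues were at the edge of detection. Psma8 had 0.61 and 0.56 TPM, from 18 and 13 reads, and Psmb11 had 0.04 and 0.13 TPM, from 5 and 8 reads. Psmc3ip had 4.79 and 4.19 TPM, and 385 bases of its transcript are identical to the overlapping gene Mlx on the opposite strand, which held 1445 and 1563 reads beside 151 and 127.

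The promoters of the members were searched for motifs. RefSeq windows of 300 bases on GRCm38.p6, from 250 before to 50 after the start site, were found for 39 of the 47 genes (42 windows). The letters CCGGAAG, the consensus of ETS factors, were searched on both strands and stood in 16 of the 42 windows (38.1%). Over all 32851 windows the share was 8.86%, and over the 12707 windows of the protein-coding genes that reached 1 TPM in each library it was 16.4%. The motif stood in 10 of 15 regulatory windows (9 of 14 genes) and in 1 of 12 core windows (Psma6). Windows of the regulatory genes Psmc3, Psmd3 and Psmd7 were not analysed here. In the 10 regulatory windows the match started between 6 bases (Psmd13) and 125 bases (Psmd4) before the start site. As examples of the match, 6 of the 10 are shown. Each is printed with the motif or its reverse complement in capitals and 20 bases on each side, 5′ to 3′ on the gene's strand:
Psmc1 (chr12:100110154-100110200, plus strand): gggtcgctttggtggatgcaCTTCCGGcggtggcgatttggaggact
Psmc6 (chr14:45329704-45329750, plus strand): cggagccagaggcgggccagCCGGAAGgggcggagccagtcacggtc
Psmd2 (chr16:20651606-20651652, plus strand): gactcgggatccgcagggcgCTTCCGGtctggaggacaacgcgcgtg
Psmd6 (chr14:14120964-14121010, minus strand): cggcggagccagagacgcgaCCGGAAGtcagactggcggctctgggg
Psmd12 (chr11:107479491-107479537, plus strand): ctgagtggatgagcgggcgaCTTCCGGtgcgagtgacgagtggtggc
Psmd13 (chr7:140882368-140882414, plus strand): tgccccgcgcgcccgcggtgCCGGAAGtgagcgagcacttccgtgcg

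A match is a description of the letters and not evidence that a factor binds. Base composition differed too, with a median of 60.3% G and C in regulatory windows, 55.7% in core windows and 52.7% over all windows. Its part in the motif shares was not tested. The antioxidant response element core TGACNNNGC, the kind of site that the product of Nfe2l1 binds, stood in 6 of 42 windows (14.3%), close to the 12.4% of all windows and the 14.01% of detected protein-coding genes. Of the core genes 11 of 14 were searched, and windows of Psmb1, Psmb2 and Psmb7 were not analysed here. The site is shown for both searched core genes that hold it, with the match in capitals:
Psmb5 (chr14:54618014-54618062, minus strand): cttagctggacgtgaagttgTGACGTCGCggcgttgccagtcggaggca
Psmb6 (chr11:70525328-70525376, plus strand): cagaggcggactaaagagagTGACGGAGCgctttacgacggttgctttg

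The matches started 47 bases before the start site of Psmb5 and 9 bases before that of Psmb6. The CCAAT box stood in 33.3% of the 42 windows, against 37.4% of all windows and 37.3% of those of detected protein-coding genes. The SP1 box GGGCGG stood in 54.8%, above the 35.7% of all windows and below the 62.0% of detected genes. The TATA box TATAAA stood in 7.14%, against 13.6% of all windows and 6.96% of detected genes.

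**Figure D3:**
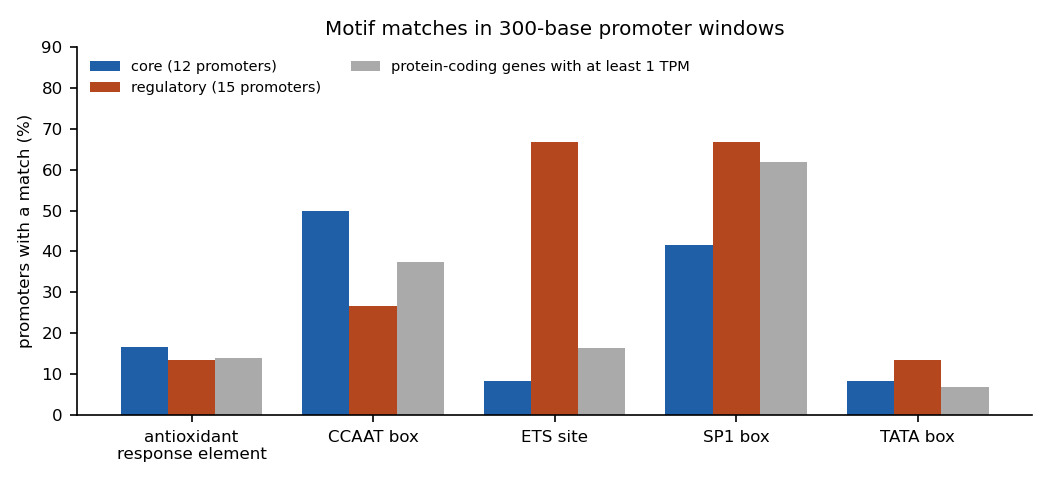
Share of promoter windows with at least 1 match on either strand (vertical axis, percent) for 5 motifs, in 12 core windows, 15 regulatory windows and the windows of protein-coding genes that reached 1 TPM in each library. The ETS site stands in 66.7% of regulatory windows, 8.33% of core windows and 16.4% of the comparison windows.

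The next comparison asked how far the subunit genes differed between the libraries. A two-sided exact conditional binomial test was run over 14078 genes, with Benjamini-Hochberg adjustment, and it covers counting error only. None of the 45 tested members was called at an adjusted p under 0.05 with an absolute log2 ratio of at least 1, where 2.41% of all tested genes were. At an unadjusted p under 0.05 there were 19 of the 45, where at least 47.2% of all tested genes were, the share that passed after adjustment. At an adjusted p under 0.05 and any size, 18 of 45 passed, where 47.2% of all genes did. Of these, 11 were higher in replicate 1 (all genes 23.6%) and 7 in replicate 2 (all genes 23.6%). The exactTest function of edgeR used a dispersion estimated over both libraries, a coefficient of variation of 16.6%. At an adjusted p under 0.05 it passed 0 of the 45 and 174 of all genes, and at an unadjusted p under 0.05 it passed 0 of the 45. That dispersion came from the same difference between the libraries that was tested. The count of 0 is therefore no evidence that the members are alike in the libraries. The median log2 ratio of replicate 1 over 2 was 0.03 for members and -0.01 for all genes, and the median absolute log2 ratio was 0.07 for members and 0.16 for all genes. The 31 core and regulatory genes had mean reads of 2404.6 to 14652.5, and 2748 tested genes lay in this range. Of these 2748 genes 66.6% passed the binomial test at any size, with a median absolute log2 ratio of 0.11. For the 31 genes the values were 48.4% and 0.05.

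In the alpha ring 7 of 7 log2 ratios of replicate 1 over 2 were above 0, from 0.0022 for Psma4, and 5 passed at any size, where 23.6% of all genes passed as higher in replicate 1. Among the 2748 genes in the read range of the subunits, 66.6% passed in either direction. The ring as a group was not tested, and none of its genes passed under exactTest. Psma3 had the largest ratio of these, at 13169 reads in replicate 1 and 11237 in replicate 2, a log2 ratio of 0.24 (exact 95% interval 0.20 to 0.27, adjusted p = 5.90e-36). The log2 ratio of its TPM was only 0.10. Its transcripts were split: Psma3-202 had 7442 and 5045 reads and Psma3-201 3580 and 3016. Psma3-203 had 1339 and 1882 reads, and Psma3-204 had 568 and 1061. The other 4 that passed were Psma1, Psma2, Psma6 and Psma7, with log2 ratios from 0.06 to 0.09. In the beta ring 2 of 7 passed, Psmb2 and Psmb6, both higher in replicate 1 by a log2 ratio of 0.06. The catalytic genes Psmb5 (log2 ratio -0.02) and Psmb7 (0.01) did not pass.

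The regulatory non-ATPases were split, with 7 of 11 log2 ratios below 0. Psmd3 had the lowest ratio among them, with 3328 reads in replicate 1 and 3822 in replicate 2, a log2 ratio of -0.19 (adjusted p = 1.22e-07). Psmd8 followed with a log2 ratio of -0.14, and Psmd1 and Psmd6 with -0.07 each. Psmd7 and Psmd2 passed in the other direction, at 0.11 and 0.10. Among the ATPases, Psmc1 was higher in replicate 1 (0.08) and Psmc2 in replicate 2 (-0.08).

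Outside both particles, 3 members passed. Psme4, with the lowest ratio of all members, had 268 reads in replicate 1 and 340 in replicate 2, a log2 ratio of -0.34 (exact 95% interval -0.57 to -0.10, adjusted p = 0.0115 by the binomial test with Benjamini-Hochberg adjustment). Psmf1 was also higher in replicate 2, at 1618 and 1814 reads and a log2 ratio of -0.16. Psmd10, a chaperone of the ATPase ring, was higher in replicate 1, at 1369 and 1225 reads and a log2 ratio of 0.17. Psmc3ip had the highest ratio of all, 0.26, which did not pass (adjusted p = 0.237).

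**Figure D4:**
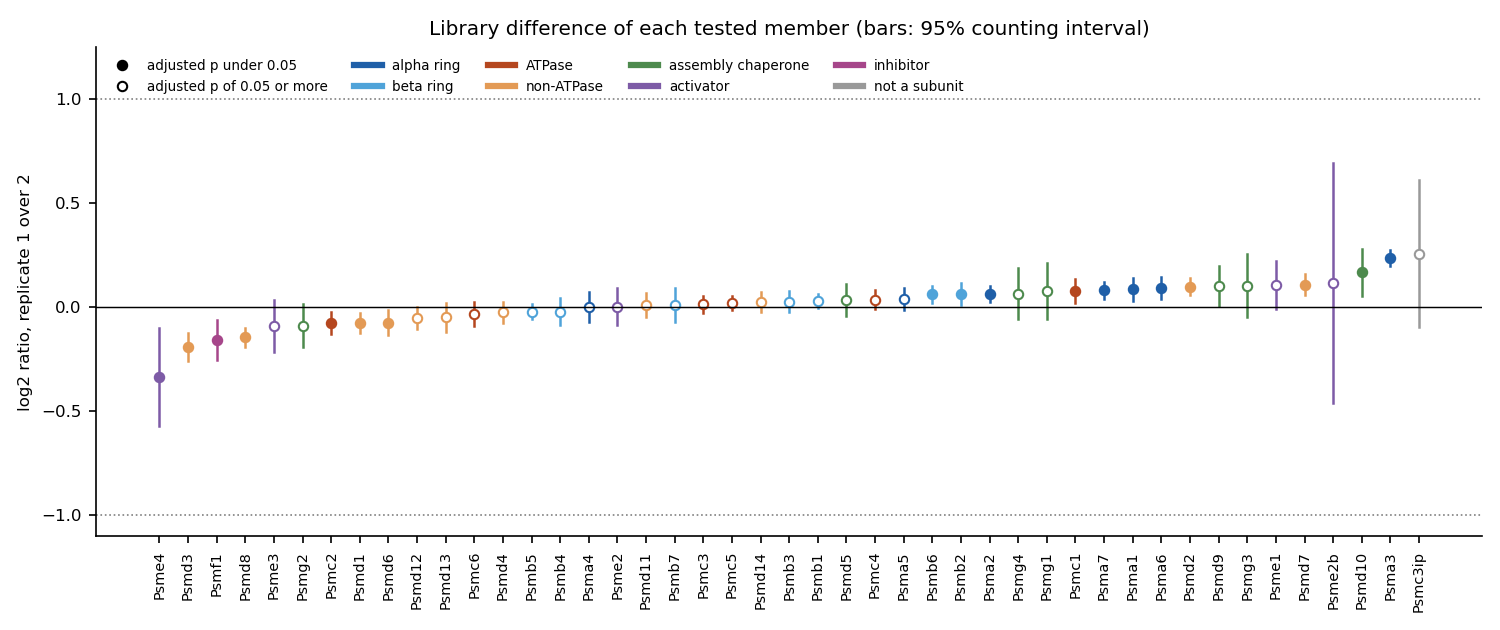
Log2 ratio of replicate 1 over replicate 2 (vertical axis) for the 45 tested genes, sorted, with bars for the exact 95% interval of counting error. Filled points passed an adjusted p under 0.05 and dotted lines mark the call limit of 1 in either direction. The ratios run from -0.34 (Psme4) to 0.26 (Psmc3ip), and no point reaches a dotted line.

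The libraries also differed in marker genes of other cell types. All 5 listed choroid plexus markers were called, with a summed level of 15249 TPM in replicate 1 and 129.4 in replicate 2. The 4 pyramidal neuron markers were lower in replicate 1, with a sum of 1589 against 1891 TPM, and the 4 meningeal markers summed to 1986 and 4647 TPM. Most of this last sum was Ptgds, at 1907 and 4555 TPM, while Dcn had 72.1 and 75.8, and 2 of the 4 were called. Each listed marker of pyramidal neurons, granule neurons and glia was above 1 TPM in both libraries. The part of these markers' cell types in the differences of proteasome genes was not tested, and in bulk tissue fewer cells of a type and less RNA per cell cannot be told apart.

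Transcript structure mattered most for a few members. Over the 42 members with at least 5 TPM and several transcripts, the dominant transcript differed between the programs in both libraries for 0, where it did for 5.23% of 8477 genes. In single libraries it differed for Psmc1 and Psmd9 in replicate 1 and for Psmd13 in replicate 2. Psmd13 overlaps the gene Sirt3 on the opposite strand by 342 bases, and the transcripts share 329 identical bases. Sirt3 held 3331 reads in replicate 1 and 3580 in replicate 2, beside 3324 and 3457 of Psmd13. Whether the counting used strand is not given. The median share of TPM in protein-coding transcripts was 99.2% over these 42 members in the first program, and 96.9% over all 8284 genes compared. In 7 of the 42 the share was under 90% in either program. How many of the 8284 genes were under 90% was not counted, so the 7 cannot be set against all genes. Psma8 and Psmc3ip, which did not reach 5 TPM in both libraries, were under 90% too.

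Psma3 stood apart from the other alpha genes. Its dominant transcript by TPM, Psma3-201, of 875 bases, is annotated as a target of nonsense-mediated decay, the pathway that removes messages with an early stop. It held 48.1% of the gene's TPM in replicate 1 and 42.1% in replicate 2, and 43.7% and 43.6% in the second program. By reads, which are not divided by length, the protein-coding Psma3-202, of 2846 bases, was the highest in both programs. In the first program it held 7442 and 5045 reads, beside 3580 and 3016 of Psma3-201. In the second it held 8754 and 5582, beside 4999 and 4672. Only 35.0% and 34.2% of the gene's TPM lay in protein-coding transcripts. Their level was 118.2 and 107.7 TPM (113 ± 7.47, SD, n = 2), against 326 ± 16.2 for the whole gene, which makes it rank near Psma4 instead of next to Psma7. Psmd1 had 29.8% and 27.9% of TPM in the decay transcript Psmd1-204, and Psmb4 had 27.3% and 20.6% in the intron-retaining Psmb4-202.

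Psmc1 differed between the programs and between the libraries. The gene had 147.8 TPM in replicate 1 and 115.8 in replicate 2, a log2 ratio of TPM of 0.35, while its reads gave 0.08. The short non-coding transcript Psmc1-203, of 551 bases, held 23.3% of the gene's TPM in replicate 1 and 0.743% in replicate 2, from 419 and 10.9 expected reads. The protein-coding transcript Psmc1-201 had 109.73 and 109.77 TPM, so the gap in the gene's TPM lay in the short transcript. The second program gave Psmc1-203 55.3% and 43.1%, and a gene level of 204.4 and 154.8 TPM. Psmc1 thus had a ratio of first to second program of 0.723 and 0.748, where the median over members of the mean of the 2 library ratios was 1.23. Over detected protein-coding genes the median ratio of the mean levels was 1.19.

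**Figure D5:**
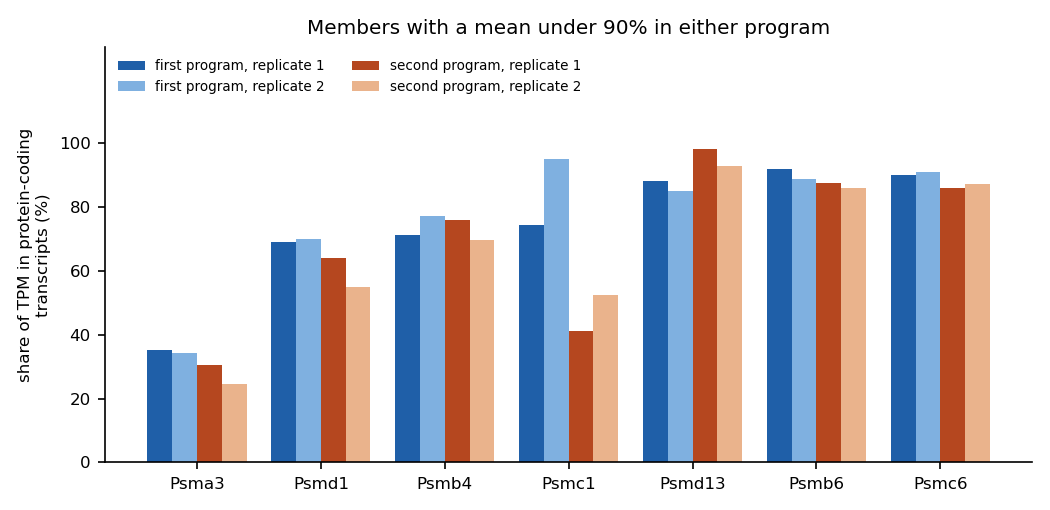
Share of each gene's TPM in protein-coding transcripts (vertical axis, percent) for the 7 members that had at least 5 TPM in both libraries and a mean under 90% in either program, by program and library (bars). Psma3 is lowest at 24.6% to 35.0%, and Psmc1 ranges from 41.2% to 94.8% over its 4 values.

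Near-identical copies were sought by alignment, with at least 90% identity over at least 200 bases, and 21 members had a match in another gene. For Psmb7, Psmc3ip, Psmd1, Psmd13 and Psmg3 the only match was a gene that overlaps the member in the genome, which is not a copy. The 28 pseudogene copies of 16 members held 345.1 and 349.9 reads, or 0.144% and 0.148% of the reads of all members. Most lay in 1 copy of Psma3, Gm13835, which is identical over 661 bases. The first program gave Gm13835 240 and 253 reads with a posterior SD of 24.9 and 24.8 reads, and the second program gave it 0. A non-coding copy of Psmd11, A730017L22Rik, held 419 and 549 reads. The spread of the assignment to genes was like that of other genes: 28 of 45 tested members had a posterior SD of 0 reads in both libraries, close to the 61.3% of all tested genes. This SD does not cover the split between the transcripts of a gene.

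The copy that matters for a member is Psme2b, an intronless copy of Psme2 that carries its own protein-coding annotation. Psme2b had 2.65 TPM in replicate 1 and 2.37 in replicate 2 in the first program, and 0.949 and 0.235 in the second, a ratio of 2.79 and 10.1. Its coding sequence differs from that of Psme2 at 5 of 717 shared positions (99.3% identity), so few reads can tell the genes apart, and the level of Psme2b is uncertain. A stretch of 120 bases with 2 of the differences is shown to make this visible, from the M21 transcripts, with the differing base in capitals. It covers bases 495 to 614 of Psme2-208 (chromosome 14) and chr11:48945703-48945822 on the minus strand for Psme2b:
Psme2: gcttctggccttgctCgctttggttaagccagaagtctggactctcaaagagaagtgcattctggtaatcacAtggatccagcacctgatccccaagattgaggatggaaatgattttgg
Psme2b: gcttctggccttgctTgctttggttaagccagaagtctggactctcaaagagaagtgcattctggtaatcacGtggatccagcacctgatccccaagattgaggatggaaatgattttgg

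Beside the members, 35 genes of the wider pathway were listed, of which 34 matched a record and 33 were tested. None was called, where 2.41% of all tested genes were. At an adjusted p under 0.05 and any size, 9 were higher in replicate 1 and 14 in replicate 2, where 23.6% of all genes were in each direction. All 4 regulators were among the 9: Nfe2l1, whose product raises subunit genes, had 38.7 and 33.1 TPM, Nfe2l2, a related factor of the oxidative stress response, had 16.0 and 12.3, Ngly1, which encodes an enzyme that processes this product, had 19.27 and 17.02, and Ddi2, the protease that activates the Nfe2l1 product, had 5.58 and 3.51 TPM. The log2 ratio of Ddi2 was 0.65, beyond that of any member. Of the 5 tested shuttle factors that carry ubiquitin chains to the proteasome, 3 were higher in replicate 2 and 1 in replicate 1. Ubqln4 was the lowest tested, at 10.54 and 10.09 TPM. Ddi1 had 0 reads in replicate 1 and 1 in replicate 2. Among the 6 proteasome-associated proteins, 4 were higher in replicate 2, and the levels ran from Txnl1 at 95.8 and 109.7 TPM down to Ecpas at 9.58 and 7.69. In the assembly list Akirin2 was the lower, at 12.9 and 15.2 TPM. Uchl1, a ubiquitin hydrolase of neurons, was the highest of the 4 brain-enriched genes at 938.2 and 972.5 TPM, and Klhl7 the lowest at 51.7 and 48.4. Ubb, which encodes ubiquitin, had 3363 and 3257 TPM, above every member.

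The members lie on 16 chromosomes, with 10 on chromosome 11. Psmb5 and the thymus gene Psmb11 are 3411 bases apart on chromosome 14, and their mean levels were 556.9 and 0.085 TPM. Psme1 and Psme2 are 5912 bases apart on the same chromosome, and 21 members overlap another gene, 16 of them one on the opposite strand. For 6 of these 16 the opposite-strand gene held at least 50 reads. The share of all genes that overlap another gene was not computed.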

How the data were processed

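Polyadenylated RNA of 2 hippocampus libraries, from 20 ng of RNA each and Nextera tagmentation, was described, and the libraries were compared with each other, since there is 1 group. The authors used mm10 and annotation M21, as the deposited readme text says. Which quantification programs they ran is not given in the sources used here. Gene tables deposited by the authors give an expected count, TPM and FPKM for each gene, per the column names in the file headers, and the deposited transcript tables of the second program hold the estimated count and TPM. The expected counts over named genes summed to 38921662 in replicate 1 and 39499350 in replicate 2. A further 26345 rows, for spike-ins or with only a number as name, stayed out.

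Counts were rounded and scaled by TMM of edgeR 4.0.16 in R 4.3.3 (factors 1.005 and 0.995), and genes with a mean count of at least 50 were tested by the exact binomial test in scipy 1.17.1 with Benjamini-Hochberg adjustment. Log2 ratios used a prior count of 0.5. No molecular identifiers separate PCR copies from molecules, so intervals cover counting error only. Transcript copies came from blastn 2.17.0, and promoter windows from RefSeq on GRCm38.p6. The test was checked on simulated data with counting error only, so the check does not cover differences between libraries beyond counting error.

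Named genes are the highest and lowest of each role, the 3 catalytic subunits, members under 1 TPM and the 3 largest and smallest ratios. Members whose programs differ 2-fold or by dominant transcript are named too. Of the members whose copies hold reads only some are named, and others are named as examples. Some listed pathway genes are not reported here. Alternatives were other scalings, minimums, units, a second program and leaving out each library. The members and lists were chosen with earlier results of these data known.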

Additional observations from a re-analysis of the deposited data

How the results depend on the processing

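Levels moved with the unit by construction, while the order of the particles held in all TPM and FPKM settings run and was lost only in CPM. The median of the core particle was 190 in FPKM, 202.7 in the second program, 160.7 in CPM and 267 as a mean, and for protein-coding transcripts only 200.9, or 159 in the second program. That of the regulatory particle was 94.7, 98.4, 163.3, 146.4, 119.1 and 90.5 in the same order. The ratio was 0.984 in CPM, 1.83 as a ratio of means, and 1.69 or, in the second program, 1.75 for protein-coding transcripts only, settings chosen after seeing the data. Without either library the ratio ranged from 1.93 to 2.08. The members' share was 0.608% of counts, 0.555% in the second program and 0.752% without mitochondrial genes. Of the tested members, 18 passed at any size and 0 under exactTest of edgeR, chosen after seeing the data for this count. Members whose dominant transcript differs between programs numbered 1 without replicate 1 and 2 without replicate 2, where only 1 library had to differ. The count called between the libraries was 0 under all 6 alternatives run. The ratios of Psme4, Psmd3, Psmf1, Psmd10, Psma3 and Psmc1 kept their sign in all settings run, and none passed under exactTest. Depth limits Psma8, Psmb11 and Psme2b, which rest on few reads, and with 2 libraries an SD has 1 degree of freedom. No paired analysis was possible because there is 1 group.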

Other observations

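Adrm1 and Sem1, which belong to the regulatory particle but not to the symbol rule, differed in opposite directions between the libraries. Adrm1 had 4433 expected reads in replicate 1 and 4897 in replicate 2, a log2 ratio of -0.14. Sem1 had 6826 and 6171 reads, a log2 ratio of 0.15. Both passed the exact binomial test at an adjusted p under 0.05 and neither reached the call limit. Adding them left the regulatory median of TPM at 120.7.

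The associated protein Zfand5, which binds the proteasome and is known to raise its activity, had 70.7 TPM in replicate 1 and 78.0 in replicate 2. Ecpas, a scaffold that binds the proteasome, was the 1 associated protein of 6 that passed as higher in replicate 1, with a log2 ratio of 0.23. Vcp, the segregase that extracts ubiquitinated proteins for the proteasome, had 150.2 and 146.0 TPM, a level between the medians of the core and regulatory particles, and its log2 ratio of 0.02 did not pass. Nploc4, a cofactor of this segregase, was the lowest of its list at 4.64 and 4.83 TPM.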
